A study of Mus musculus with 10 samples.

Results

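The 10 genes described here are the peroxisome proliferator-activated receptor (PPAR) genes Ppara, Ppard and Pparg, their dimer partner Rxra, and 6 genes known to respond to fatty acids, namely Pdk4, Ucp3, Angptl4, Cpt1a, Vnn1 and Slc22a5. They were chosen by gene symbol from the deposited tables of left ventricular RNA and are 10 of the 29564 genes listed. Of the 10 genes, 9 passed the filter on low counts and stand among the 13296 genes tested, whereas Vnn1 did not pass.

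The study asked how the left ventricle differs between control mice and mice made to develop heart failure in which the ejection fraction is preserved. The 5 control mice (TT-583 to TT-587) and the 5 HFD+mTAC mice (labelled TT-588 to TT-592) were wild-type C57BL6 males. Control mice ate a diet in which fat supplied 10% of kilocalories, were 11 weeks of age at the start and were not operated on. HFD+mTAC mice ate a high-fat diet (HFD) in which fat supplied 60% of kilocalories and underwent, at 11 weeks of age, moderate transverse aortic constriction (mTAC), a narrowing of the aorta that puts a pressure load on the left ventricle. The model was induced over 16 weeks. The labels give vehicle as the treatment of all 10 mice, and for HFD+mTAC mice they describe a daily dose of DMSO and PEG-300 in water (10 mL/kg) over 6 to 9 weeks, while the dosing of control mice is not described there. Diet and operation went together in these 10 mice, so that a response to fat and a response to pressure load cannot be told apart. Each library came from the tissue of 1 mouse, and p-values measure the spread between these mice. Total estimated counts were 34.2 to 53.7 M per mouse, of which 43.8 to 52.7% came from mitochondrially encoded genes and 12.6 to 21.1 M from the genes tested.

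PPARs are nuclear receptors that fatty acids and their derivatives activate. Each binds DNA as a dimer with a retinoid X receptor, of which RXRα, encoded by Rxra, is a major form, and the dimer recognizes a DR1 element, a direct repeat of AGGTCA with a spacer of 1 base. In heart muscle PPARα and PPARδ are known for turning on genes that take up, bind and oxidize fatty acids, whereas PPARγ is best known from fat cells. Many PPAR targets also respond to fasting, glucocorticoids and the time of day.

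RefSeq promoters of build GRCm38.p6, from 250 bases before to 50 bases after the start of transcription, were found for 8 of the 10 genes, and the motif AGGTCANAGGTCA was searched on both strands in each. The best match was in the promoter of Ucp3 (chr7:100472741-100473040, plus strand) and in 1 of the Rxra promoters (chr2:27709042-27709341, plus strand), where 10 of the 12 fixed bases matched, with 2 mismatches. Such a match or a better one was present in 3.86% of the 32851 promoters searched. That share is per promoter, whereas these matches were picked as the best among all promoters of the 8 genes. Rxra and Pparg had more than 1 promoter each. The promoter of Cpt1a (chr19:3323051-3323350, plus strand) is shown beside them because Cpt1a had the smallest p-value of the 9 genes tested. Its best match had 4 mismatches, and a match at least as good was in 79.8% of promoters. Capitals mark the best match in each, and letters run 5′ to 3′ along the strand of the gene.
Ucp3: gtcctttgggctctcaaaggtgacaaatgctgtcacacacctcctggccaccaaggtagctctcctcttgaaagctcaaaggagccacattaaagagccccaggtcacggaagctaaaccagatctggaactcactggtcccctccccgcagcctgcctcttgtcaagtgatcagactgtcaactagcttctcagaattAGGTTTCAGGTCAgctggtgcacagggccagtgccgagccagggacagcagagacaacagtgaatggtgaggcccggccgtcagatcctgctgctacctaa
Rxra: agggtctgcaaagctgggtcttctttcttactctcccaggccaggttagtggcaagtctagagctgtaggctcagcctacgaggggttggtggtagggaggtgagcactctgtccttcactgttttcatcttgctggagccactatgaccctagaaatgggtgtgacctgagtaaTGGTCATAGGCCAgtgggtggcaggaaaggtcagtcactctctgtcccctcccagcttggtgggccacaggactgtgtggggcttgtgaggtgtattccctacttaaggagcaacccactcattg
Cpt1a: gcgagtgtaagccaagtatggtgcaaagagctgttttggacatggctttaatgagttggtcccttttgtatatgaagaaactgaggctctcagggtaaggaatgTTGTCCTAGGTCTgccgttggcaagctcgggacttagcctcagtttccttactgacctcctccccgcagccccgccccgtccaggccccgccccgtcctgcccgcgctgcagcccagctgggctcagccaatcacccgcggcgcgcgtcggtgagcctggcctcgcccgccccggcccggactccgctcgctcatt
The matching stretch was AGGTTTCAGGTCA in Ucp3, starting 51 bases before the start of transcription, and TGGTCATAGGCCA in Rxra, starting 75 bases before it. The Ucp3 promoter and this Rxra promoter each held the single unit AGGTCA at 2 positions on either strand, of which 1 lies inside the match in Ucp3 and 0 in Rxra, and at least 2 such units were found in 1.79% of promoters. These matches describe letters in a window and not binding sites, and binding was not measured.

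Levels are given as CPM, estimated counts scaled to a common library size over the genes tested, with edgeR's TMM normalization. In CPM per kilobase of the longest annotated transcript, a scale that allows genes to be compared, Pdk4 was the most abundant of the 10 genes in control hearts, with a mean of 127 ± 43.6 (SD, n = 5). Its lowest control heart (77.0) lay above the highest of the next gene, Rxra (23.5). Rxra, Ucp3, Cpt1a, Ppard and Slc22a5 followed, with control means per kilobase from 21.5 down to 10.1, and each overlapped the next in that order. Pparg (6.03 ± 2.78, SD, n = 5), Ppara (2.12 ± 0.88, SD, n = 5) and Angptl4 (1.4 ± 0.23, SD, n = 5) were lower, with Ppara and Angptl4 overlapping, and Vnn1 was close to 0. In bulk tissue such as this, fewer cells of a type and less RNA per cell cannot be told apart. The lengths used for this order are those of the annotation, and the deposited effective lengths differ from them. In the deposited TPM, which uses the effective lengths, Pdk4 was again highest in control hearts (mean 11.4), but the order below it changed. Rxra (2.07) and Ppard (2.05) came next, then Ucp3 (1.23), Slc22a5 (1.22), Cpt1a (1.16) and Pparg (1.12). Angptl4 (0.345) lay above Ppara (0.173) on that scale.

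The level of Ppara, the receptor most tied to cardiac fatty acid oxidation (chromosome 15, 85734983 to 85802819, plus strand, GRCm38), did not separate the groups. It was 5.28, 7.30, 10.8, 9.52 and 3.38 CPM in control hearts TT-583 to TT-587 and 17.3, 12.6, 5.15, 2.53 and 7.30 CPM in HFD+mTAC hearts TT-588 to TT-592. The highest and the lowest of all 10 values both belonged to HFD+mTAC hearts, and 2 of the 5 lay above every control heart. The log2 fold change (log2FC, HFD+mTAC over control) of Ppara was 0.31 (standard error, SE, 0.44, edgeR quasi-likelihood test with Benjamini-Hochberg adjustment, adjusted p = 0.917), and it was -0.08 without mouse TT-588. With a 95% interval of the fold from 0.635 to 2.41, neither a fall nor a rise of Ppara could be detected with these mice.

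Ppard, the PPAR that is expressed in most tissues, varied by little among mice, with a coefficient of variation of 12.2% in control and 7.48% in HFD+mTAC hearts. It ranged from 34.7 to 46.0 CPM (median 40.9) in control hearts and from 38.5 to 47.4 CPM (median 43.9) in HFD+mTAC hearts. The log2FC of Ppard was 0.08 (SE 0.10, edgeR adjusted p = 0.894), with a 95% interval of the fold from 0.914 to 1.23. Rxra, the most abundant of the 4 receptor genes per kilobase, was at 89.7 to 115.0 CPM (median 112) in control hearts and 109 to 116 CPM (median 114) in HFD+mTAC hearts. The ranges overlapped, and the log2FC of Rxra was 0.10 (SE 0.08, edgeR adjusted p = 0.806), or 0.35 to 0.40 on the scales that use the deposited lengths (a length offset, or limma on TPM).

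Pparg was 8.17, 21.8, 10.97, 7.65 and 15.4 CPM in control hearts and 19.6, 17.9, 18.7, 18.4 and 13.3 CPM in HFD+mTAC hearts. All 5 HFD+mTAC hearts lay above the control mean of 12.8 CPM, but control heart TT-584 had the highest value of all. The log2FC of Pparg was 0.46 (SE 0.26, edgeR adjusted p = 0.696), and it was 0.74 without TT-584. Of the summed CPM per kilobase of the 3 PPAR genes, Ppard took 58.1% ± 6.52 (SD, n = 5) in control hearts and 52.0% ± 6.42 (SD, n = 5) in HFD+mTAC hearts, Pparg 30.7% ± 9.92 and 36.7% ± 4.50, and Ppara 11.1% ± 4.46 and 11.3% ± 6.60. In TPM, Ppard took 63.2% ± 9.05 in control and 54.8% ± 7.96 in HFD+mTAC hearts (SD, n = 5 each). Pparg took 32.1% ± 9.66 and 35.8% ± 6.49 of the TPM, and Ppara 4.68% ± 4.53 and 9.32% ± 9.37. On both scales the shares of each gene overlapped between the groups, and they are given as a description.

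**Figure D1:**
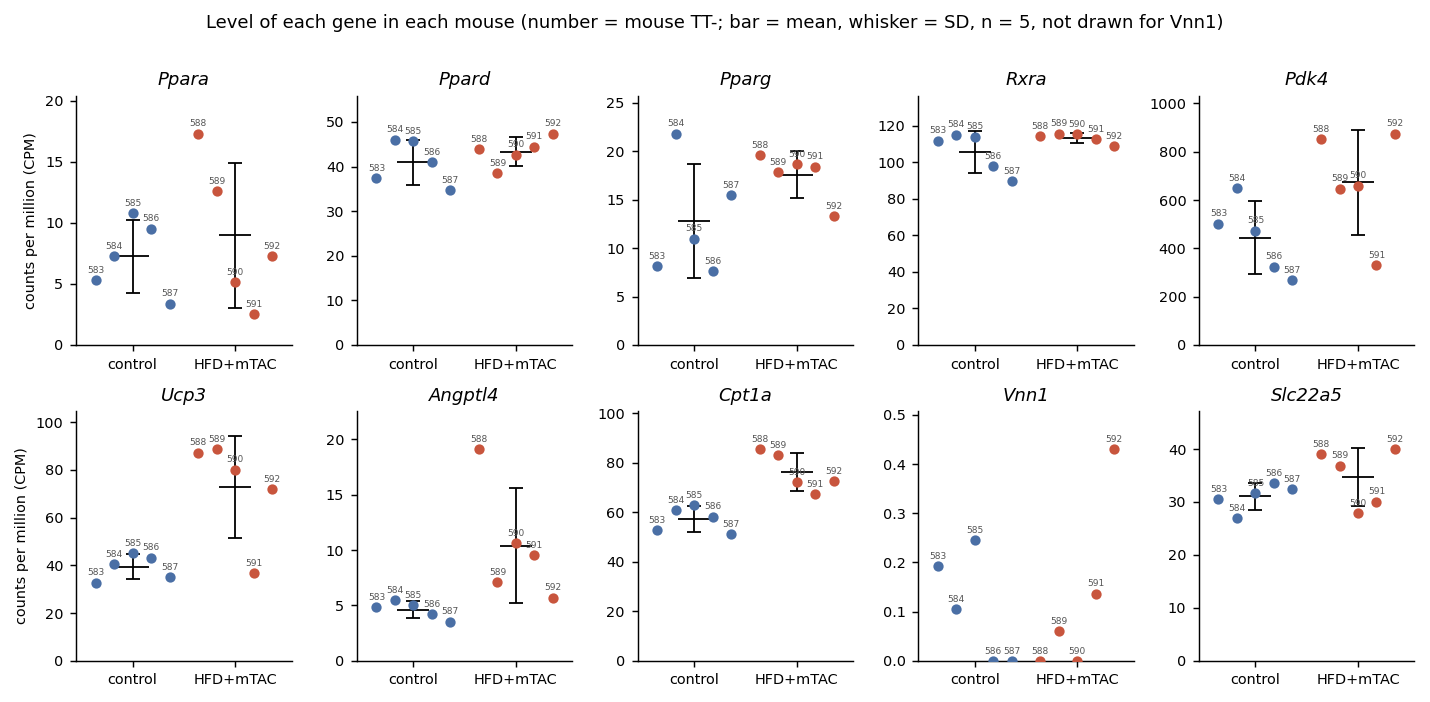
Level of each of the 10 genes in CPM (vertical axes, each from 0) in each control (blue) and HFD+mTAC (red) mouse, with the mean (bar) and SD (whiskers) of 5 mice for all but Vnn1. All 5 HFD+mTAC hearts lie above all 5 control hearts for Angptl4 and Cpt1a, and 4 of 5 do for Ucp3, where TT-591 is the exception.

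On the count scale Angptl4, Ucp3 and Pdk4 had the 3 largest fold differences of the 9 genes tested, of which that of Angptl4 turned in sign with the deposited lengths. Ucp3, a mitochondrial carrier of the uncoupling protein family (chromosome 7, 100472990 to 100486432, plus strand), was 32.8, 40.7, 45.1, 43.2 and 35.2 CPM in control hearts. In HFD+mTAC hearts it was 87.3, 88.6, 80.1, 36.7 and 71.8 CPM. Mice TT-588, TT-589, TT-590 and TT-592 lay above every control heart, while TT-591 lay within the control range. The difference was 1.85-fold (95% interval 1.37 to 2.50), a log2FC of 0.89 (SE 0.20). Ucp3 did not pass edgeR's test over all genes (adjusted p = 0.199), and it passed in DESeq2 (adjusted p = 0.00764) and in edgeR without mouse TT-591 (log2FC 1.06, adjusted p = 0.00492).

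Cpt1a, 1 of the carnitine palmitoyltransferases that admit long-chain fatty acids to mitochondria (chromosome 19, 3322334 to 3385733, plus strand), was 52.6, 61.0, 63.0, 58.2 and 51.2 CPM in control hearts. In HFD+mTAC hearts it was 85.4, 83.2, 72.3, 67.3 and 72.6 CPM. Every HFD+mTAC heart lay above every control heart, by a margin between TT-591 (67.3) and TT-585 (63.0). The difference was smaller than that of Ucp3 but had less spread, at 1.33-fold (95% interval 1.16 to 1.53) and a log2FC of 0.41 (SE 0.09). For Cpt1a edgeR gave an adjusted p = 0.198 and DESeq2 gave an adjusted p = 0.0203.

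Angptl4, which encodes a secreted inhibitor of lipoprotein lipase (chromosome 17, 33773750 to 33781830, minus strand), was low per kilobase in both groups. It was 4.85, 5.47, 5.05, 4.23 and 3.54 CPM in control hearts and 19.1, 7.08, 10.6, 9.56 and 5.71 CPM in HFD+mTAC hearts. All 5 HFD+mTAC hearts lay above all control hearts, with TT-588 far above the other HFD+mTAC hearts and TT-592 just above TT-584. On the count scale Angptl4 had the largest fold of the 9 genes tested, 2.24 (95% interval 1.45 to 3.45), whereas its sign turned when the deposited lengths were used (log2FC -0.35 with lengths as an offset). The log2FC on counts was 1.16 (SE 0.29, edgeR adjusted p = 0.261, DESeq2 adjusted p = 0.0171), and 0.82 (edgeR adjusted p = 0.335) without TT-588.

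Pdk4, a kinase that inactivates pyruvate dehydrogenase and thereby spares glucose (chromosome 6, 5483351 to 5496309, minus strand), varied widely in both groups. It was 503, 651, 473, 325 and 268 CPM in control hearts and 851, 647, 660, 331 and 875 CPM in HFD+mTAC hearts. Only 3 of the 5 HFD+mTAC hearts lay above every control heart, and TT-591 was again the lowest of its group. The log2FC of Pdk4 was 0.60 (SE 0.27, edgeR adjusted p = 0.597), or 1.51-fold with a 95% interval from 1.01 to 2.27.

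Slc22a5, which encodes the carnitine transporter OCTN2 (chromosome 11, 53864542 to 53891660, minus strand), was 27.0 to 33.6 CPM (median 31.6) in control hearts and 27.9 to 39.9 CPM (median 36.9) in HFD+mTAC hearts. The ranges overlapped, and the log2FC of Slc22a5 was 0.17 (SE 0.12, edgeR adjusted p = 0.775), or 0.26 to 0.28 with lengths. Vnn1, a pantetheinase that is a strong PPARα target in liver, had 4, 2, 5, 0 and 0 counts in control hearts and 0, 1, 0, 2 and 7 counts in HFD+mTAC hearts. A count of 0 in the mouse with the fewest counts allows up to 3 counts, or 0.236 CPM, for counting error only. No group difference in Vnn1 could be read at this depth.

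All 9 genes tested were higher in HFD+mTAC hearts by sign on the count scale, and 8 of the 9 were with the deposited lengths, Angptl4 being the exception. Over all 13296 genes, 50.4% were higher, with a median log2FC of 0.001, against a median of 0.41 for these 9. In edgeR, 0 of the 9 genes had an adjusted p under 0.05, where 8 of all genes did (0.0602%). Of the 9 genes, 4 (Cpt1a, Ucp3, Angptl4 and Pdk4) were higher at an unadjusted edgeR p under 0.05, against 4.54% of all genes. The groups did not overlap, with HFD+mTAC above, for 2 of the 9 (Angptl4 and Cpt1a), against 1.08% of all genes. DESeq2 called 3 of the 9 higher (Ucp3, Angptl4 and Cpt1a), against 0.476% of the 13028 genes to which it gave an adjusted p. The 10 genes were listed with earlier results of these mice known, so that these counts are descriptions.

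**Figure D2:**
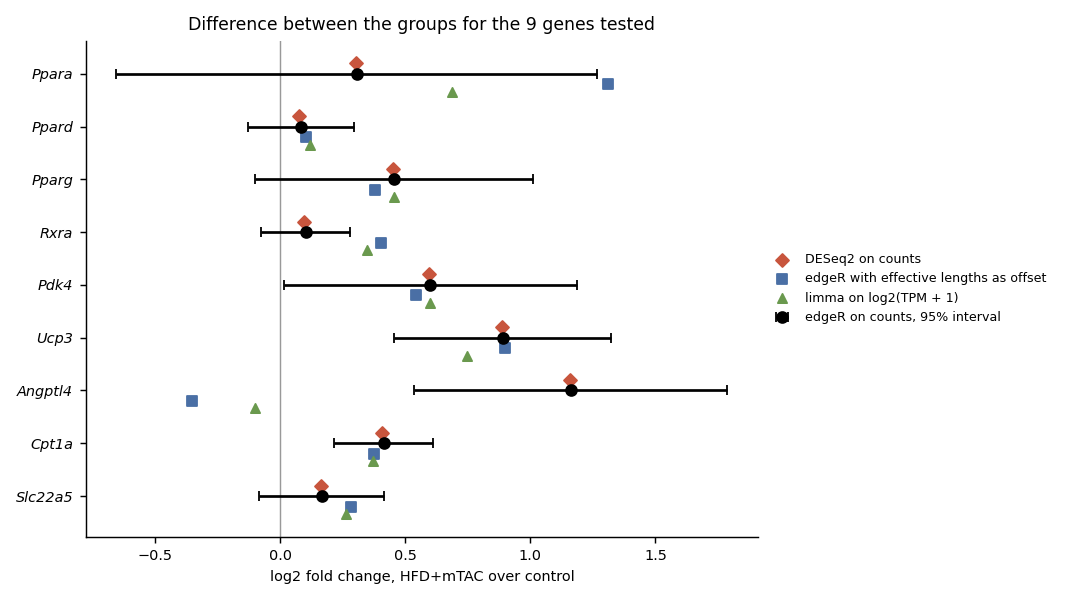
Log2 fold change (log2FC) of HFD+mTAC over control hearts (horizontal axis) for the 9 genes tested, from edgeR on counts with its 95% interval (black), DESeq2 (red), edgeR with effective lengths as an offset (blue) and limma on log2(TPM + 1) (green). The intervals of Pdk4, Ucp3, Angptl4 and Cpt1a lie above 0, and Angptl4 moves from 1.16 to -0.35 and Ppara from 0.31 to 1.31 when lengths are used.

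Mice differed as a whole over these genes. Among HFD+mTAC hearts TT-588 had the highest value of its group for 4 of the 9 genes tested and the lowest for 0, whereas TT-591 had the lowest for 4 and the highest for 0. Mouse TT-591 lay above the control mean for 5 of the 9 genes, and TT-588 and TT-592 did for all 9. Among control hearts TT-584 was highest for 5 genes and TT-587, which had the fewest counts on the genes tested, was lowest for 6. The mitochondrially encoded share was 51.6% in TT-591 and 49.9% in TT-588, and summed hemoglobin TPM was 735 in TT-591 and 748 in control heart TT-585, which was lowest of its group for 0 genes and highest for 3, against 74.7 to 409.5 in the other hearts. The part of these measures in the levels was not tested.

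The deposited effective length, the average transcript length of a gene weighted by the abundance of its isoforms and corrected for bias, was read beside the level because it enters TPM, the transcript abundance scaled within each mouse, and not the counts. For Ppara it was 22282, 2906, 22742, 4684 and 27192 bases in control hearts and 2386, 24226, 4619, 3564 and 2191 bases in HFD+mTAC hearts, while the longest annotated transcript of Ppara has 3413 bases. For Angptl4 it was 5927, 1488, 5668, 7916 and 665 bases in control hearts and 6018, 6333, 8648, 6609 and 6075 bases in HFD+mTAC hearts, against a longest transcript of 3308 bases. For Ppara in both groups and Angptl4 in control hearts, these values fell into separate ranges among mice of the same group. Those of Angptl4 in HFD+mTAC hearts ran from 6018 to 8648 bases, with TT-590 above the others. Over the 10 mice the largest was 12.4 times the smallest for Ppara and 13 times for Angptl4. The spread was wider than in 97.9% of tested genes for Ppara and 98.1% for Angptl4, and the median over all genes was 1.42 times.

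The other members were steadier, with spreads from 1.25 times for Vnn1 and Cpt1a to 2.40 times for Rxra, where TT-588 had 3689 bases against at least 7513 in the other mice. Even so the effective lengths of Pdk4, Ucp3, Cpt1a, Slc22a5 and Vnn1 exceeded the longest annotated transcript in 10 of 10 mice. Over all genes tested, the mean length exceeded the longest transcript for 47.7% of genes. The annotation read here (GENCODE M21) is an older release than the authors', and the reason for these lengths was not tested. In limma on log2 effective length, 0 of the 9 members and 0 of all 13296 genes (0%) had an adjusted p under 0.05. At an unadjusted p under 0.05, the same test marked 0 of the 9 members and 3.75% of all genes.

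In TPM the level of Angptl4 was 0.142, 0.657, 0.131, 0.0752 and 0.719 in control hearts and 0.490, 0.145, 0.164, 0.200 and 0.161 in HFD+mTAC hearts. The 2 highest values, in TT-584 and TT-587, belonged to the control hearts with the shortest lengths, and the groups overlapped. Ppara in TPM ranged from 0.0168 to 0.450 in control hearts and from 0.0674 to 1.12 in HFD+mTAC hearts. For Ucp3, Pdk4 and Cpt1a the log2FC kept its sign in TPM rescaled within each mouse to the genes tested. By limma on log2(TPM + 1) it was 0.75, 0.60 and 0.37 in that order, with adjusted p-values of 0.765, 0.819 and 0.609. The TPM values printed above are as deposited, without this rescaling.

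**Figure D3:**
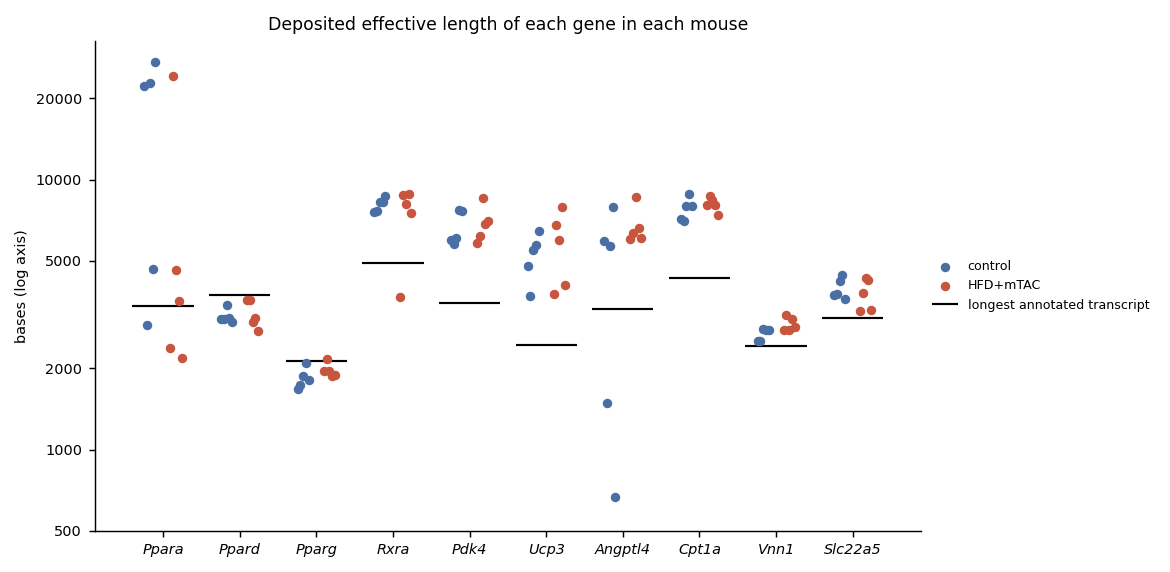
Deposited effective length in bases (vertical log axis) of each of the 10 genes in each control (blue) and HFD+mTAC (red) mouse, with the longest transcript of the annotation as a black line. Lengths of Ppara and Angptl4 differ by over 10 times between mice of 1 group or between groups, while those of Ppard, Pparg and Cpt1a stay close together.

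Paralogs show where each gene stands in its family. Among the other pyruvate dehydrogenase kinases, Pdk2 was at 798 ± 65.2 CPM (SD, n = 5) in control hearts and had a log2FC of -0.04 (SE 0.10), against 0.60 for Pdk4. Pdk1 had 0.29 and Pdk3 -0.26, neither with an unadjusted p under 0.05, and with the deposited lengths Pdk1 had 0.57 to 0.80, Pdk2 -0.22 to -0.12 and Pdk3 -0.17 to -0.07. The share of Pdk4 in the summed counts of the 4 kinases was 29.6% ± 7.16 (SD, n = 5) in control hearts and 37.9% ± 6.63 (SD, n = 5) in HFD+mTAC hearts (exact permutation test, two-sided, p = 0.0952, adjusted over 4 shares 0.127). In TPM, the scale set for these shares, it was 17.1% ± 6.66 and 25.2% ± 9.84 (SD, n = 5 each, exact permutation test, p = 0.183, adjusted 0.365).

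Cpt1b, the muscle form of the enzyme, was at 766 ± 70.9 CPM (SD, n = 5) in control and 920 ± 144 CPM (SD, n = 5) in HFD+mTAC hearts. Cpt1b had a log2FC of 0.27 (SE 0.11, edgeR adjusted p = 0.559), or 0.46 to 0.47 with lengths. Cpt1a took only 2.50% ± 0.64 of their summed TPM in control hearts and 2.42% ± 0.80 in HFD+mTAC hearts (SD, n = 5 each, exact permutation test, p = 0.841), and 6.96% ± 0.36 and 7.72% ± 0.80 of their counts (exact permutation test, p = 0.0952). The sign of this difference thus turned with the scale. Cpt1c was at 2.58 ± 1.51 CPM (SD, n = 5) in control hearts and was not tested.

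Ucp2, a relative of Ucp3 that is expressed in many cell types, had a log2FC of 0.56 (SE 0.16, edgeR adjusted p = 0.309), or 1.07 to 1.19 with lengths, and Ucp1, the uncoupling protein of brown fat, had 0 counts in all 10 mice. Ucp3 took 38.3% ± 7.71 of the summed counts of Ucp2 and Ucp3 in control hearts and 43.2% ± 11.9 in HFD+mTAC hearts (SD, n = 5 each, exact permutation test, p = 0.444), and 18.4% and 15.2% of their TPM (p = 0.540, exact permutation test). Rxra took 44.6% ± 1.47 of the counts of the 3 RXR genes in control hearts and 48.9% ± 2.08 in HFD+mTAC hearts (SD, n = 5 each, exact permutation test, p = 0.0159, adjusted 0.0635). In TPM the Rxra share was 14.5% ± 1.84 and 19.4% ± 6.87 (SD, n = 5 each, exact permutation test, p = 0.0714, adjusted 0.286). Rxrb and Rxrg had log2FC values of -0.06 and -0.21, neither with an unadjusted p under 0.05, and with lengths -0.27 to -0.26 and -0.11 to -0.07.

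Of the relatives of Angptl4, Angptl2, a secreted protein without the lipase-inhibiting role, was 115 to 154 CPM in control and 173 to 224 CPM in HFD+mTAC hearts, with no overlap. Angptl2 had a log2FC of 0.53 (SE 0.10, edgeR adjusted p = 0.140, DESeq2 adjusted p = 0.00231). Angptl6 stayed below 6 CPM on average and had a log2FC of -0.18, with an unadjusted p above 0.05. Slc22a4 and Slc22a21, carnitine transporter relatives of Slc22a5, had 0.04 and 0.02 (0.06 to 0.10 and 0.22 to 0.61 with lengths), and Vnn3 had a mean of 0.166 CPM in control hearts and was not tested. Angptl8 was not analysed here.

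The wider PPAR program was read from 3 lists of known targets, most of which were higher in HFD+mTAC hearts by sign, and set beside 4 lists of receptors and coregulators, paralogs, genes that respond to FoxO factors or glucocorticoids, and clock genes. Over the 101 distinct genes tested from all 7 lists, 30 were higher and 2 lower at an unadjusted p under 0.05, against 4.54% and 3.72% of all genes.

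Of 25 genes for mitochondrial and peroxisomal fatty acid oxidation, 23 were higher and 2 lower by sign, 14 were higher at an unadjusted p under 0.05 and 0 lower, and the median log2FC was 0.27, against 0.001 over all genes. Decr1, an auxiliary enzyme for unsaturated fatty acids, was 502 to 628 CPM in control and 751 to 869 CPM in HFD+mTAC hearts, a log2FC of 0.45 (SE 0.08, edgeR adjusted p = 0.0931, DESeq2 adjusted p = 5.46e-05). Ech1, an isomerase of the same pathway, had 0.35 (SE 0.09, edgeR adjusted p = 0.261), and its groups did not overlap either. The genes with the smallest p among those lower by sign, Etfb and Etfa, which pass electrons from this pathway to the respiratory chain, had -0.03 and -0.00, and both were above 0 with lengths.

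Of 15 tested genes for uptake, binding and storage of fatty acids, 13 were higher and 2 lower by sign, 5 were higher and 1 lower at an unadjusted p under 0.05, and the median log2FC was 0.25. Acot2, a mitochondrial thioesterase that releases fatty acids from coenzyme A, was 104 ± 19.1 CPM (SD, n = 5) in control and 174 ± 27.8 CPM (SD, n = 5) in HFD+mTAC hearts, a log2FC of 0.74 (SE 0.14, edgeR adjusted p = 0.106). Cidea, a lipid droplet protein, was 32.9 to 45.0 CPM in control and 46.5 to 55.2 CPM in HFD+mTAC hearts. Cidea had a log2FC of 0.39 (SE 0.11, edgeR adjusted p = 0.284), or 0.12 to 0.18 with lengths.

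Lpl, the lipoprotein lipase that the product of Angptl4 inhibits, was lower in HFD+mTAC hearts, unlike most genes of this list. Lpl was 10335, 9687, 9999, 9139 and 12317 CPM in control hearts and 7578, 7970, 7579, 7049 and 7680 CPM in HFD+mTAC hearts. All 5 HFD+mTAC hearts lay below all control hearts, as for 0.887% of all genes, and the log2FC of Lpl was -0.44 (SE 0.09, edgeR adjusted p = 0.185, DESeq2 adjusted p = 0.000417). With lengths Lpl had -0.47 to -0.43, and Angptl4, which was higher on counts, had -0.35 to -0.03. Cd36, a fatty acid transporter of the cell surface, had a log2FC of -0.01 (edgeR adjusted p = 0.995).

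Among 10 tested genes of other PPAR targets, 9 were higher and 1 lower by sign, 4 were higher at an unadjusted p under 0.05 and 0 lower, and the median log2FC was 0.28. Retsat, retinol saturase, had 0.49 (SE 0.13, edgeR adjusted p = 0.262), and Hilpda, a lipid droplet protein induced by hypoxia, had -0.10 (SE 0.25, edgeR adjusted p = 0.947) on counts and was above 0 with lengths. Fgf21, Cyp4a10, Cyp4a14 and Creb3l3, targets known from liver, did not pass the filter on low counts.

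Receptors and coregulators were split in direction. Of 20 such genes, 9 were higher and 11 lower by sign, 1 was higher at an unadjusted p under 0.05 and 0 lower, and the median log2FC was -0.04. Klf15, a regulator of cardiac metabolism that partners with PPARα, had 0.45 (SE 0.23, edgeR adjusted p = 0.665). Crebbp, a coactivator that acetylates histones, had -0.40 (SE 0.20, edgeR adjusted p = 0.629).

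Genes tied to signals other than PPARs, namely FoxO factors, glucocorticoids and the clock, were read from 2 further lists. Of 13 genes that respond to FoxO factors or glucocorticoids, 11 were higher and 2 lower by sign, with 3 higher at an unadjusted p under 0.05, 0 lower and a median log2FC of 0.15. Zbtb16, a glucocorticoid-induced transcription factor, was 20.3 to 30.8 CPM in control and 35.0 to 82.8 CPM in HFD+mTAC hearts, a log2FC of 1.00 (SE 0.24, edgeR adjusted p = 0.249), or 0.58 to 0.93 with lengths. Tsc22d3, known as GILZ and another glucocorticoid target, had 0.50 (SE 0.18, edgeR adjusted p = 0.468), whereas Cdkn1a had -0.61 (SE 0.40, edgeR adjusted p = 0.759) and Foxo1 -0.10. Of 10 tested clock genes, 8 were higher and 2 lower by sign, with 2 higher (Per2, 0.75, and Tef, 0.56) and 1 lower (Npas2, -0.91) at an unadjusted p under 0.05 and a median of 0.37, and Nr1d1 had -0.24. With lengths Tef had 1.82 to 2.27, Npas2 -1.02 to -0.34 and Nr1d1 -0.22 to -0.14. The time of day of tissue collection was not given in the sources used here, and the part of these lists in the levels of Pdk4 and Ucp3 was not tested.

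**Figure D4:**
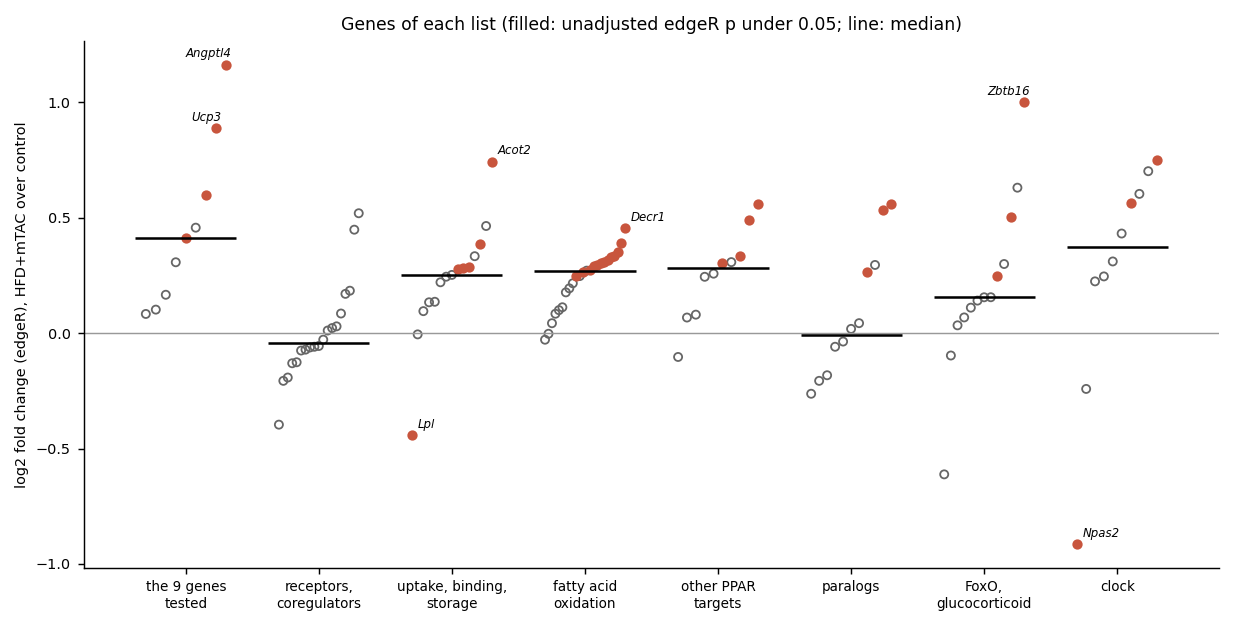
Log2 fold change (log2FC) (vertical axis, edgeR) of the 9 genes described and of genes of the 7 lists (columns), with filled points for an unadjusted p under 0.05 and a line at the median. Medians lie at 0.25 to 0.28 for the 3 lists of PPAR targets and near 0 for receptors, coregulators and paralogs, and the medians cover whole lists, of which 3 genes are not drawn.

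To ask whether these genes vary together from mouse to mouse, log2 CPM was taken as the deviation from the group mean and correlated for the 36 pairs of the 9 genes over the 10 mice, with exact permutation within groups and adjustment over the 36 pairs. Of the 36 pairs, 31 had a positive r and 3 passed. Ppara and Cpt1a were the closest pair, with r = 0.93 (exact permutation p = 0.000486, adjusted 0.0175) and rho = 0.96 (exact permutation p = 0.000139, adjusted 0.005), and r was 0.91 without mice TT-588 and TT-591. Ppara and Ucp3 had r = 0.84 (exact permutation p = 0.00299, adjusted 0.0358) and rho = 0.84 (exact permutation p = 0.0075, adjusted 0.09), with r = 0.71 without the same mice. Ucp3 and Cpt1a had r = 0.76 (exact permutation p = 0.00264, adjusted 0.0358) and rho = 0.87 (exact permutation p = 0.00313, adjusted 0.0563), with r = 0.77 without TT-583 and TT-591.

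Within groups, mice with more Ppara had more Cpt1a and Ucp3, while Ppara did not separate the groups. The share of all genes that followed Ppara as closely is not given here. Over the 10 mice, Psmd1 and Nek9, described below, had r = 0.98 each with Ppara. Pooled over both groups without removing the group means, r was 0.54 for Ppara and Cpt1a, 0.61 for Ppara and Ucp3 and 0.91 for Ucp3 and Cpt1a, and only the last passed (permutation p = 0.00026, adjusted 0.00936). When each mouse was left out in turn, 3 pairs passed without TT-590 or TT-592 and 0 or 1 without any of the other mice. The pair of Angptl4 and Ppara did not pass (r = 0.34, exact permutation p = 0.486, adjusted 0.754), and Pdk4 and Ucp3 had r = 0.64, which fell to -0.21 without TT-587 and TT-591.

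**Figure D5:**
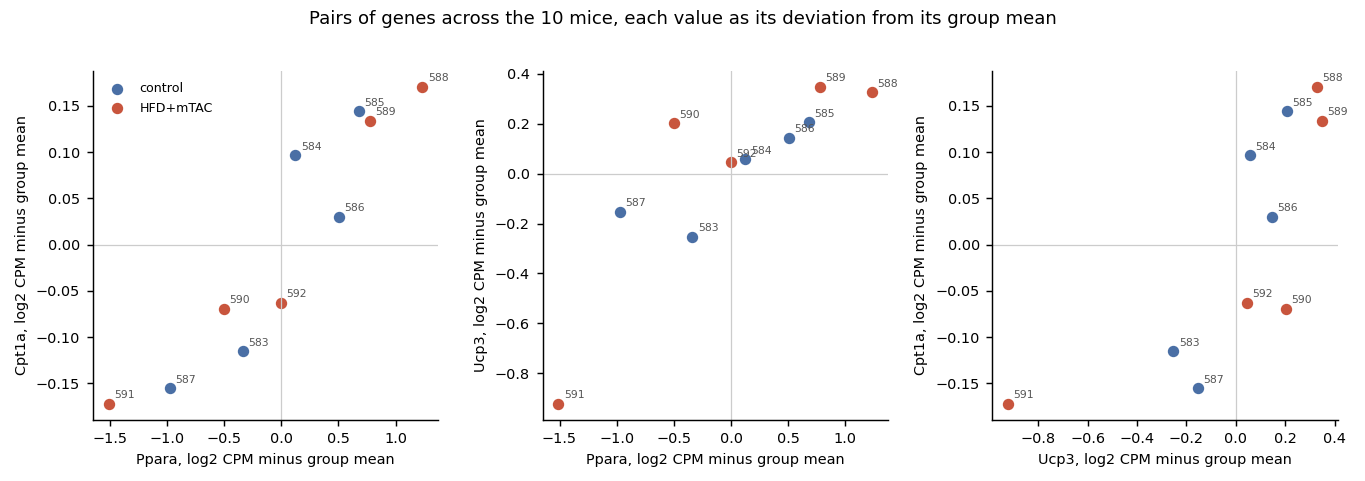
Log2 CPM of Ppara, Ucp3 and Cpt1a as deviations from the group mean (both axes) in each control (blue) and HFD+mTAC (red) mouse, for the 3 pairs that passed. TT-591 lies at the low end of all 3 plots and TT-588 or TT-589 at the high end, and r is 0.93, 0.84 and 0.76 from left to right.

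Over the 10 mice and all tested genes with a mean of at least 5 CPM, the genes most like each member by Pearson r of log2 CPM were named as a description, since such values were selected as the highest among the genes compared. For Ppara they were Psmd1 (r = 0.98), a proteasome subunit, and Nek9 (r = 0.98), a kinase, with log2FC values of 0.12 and -0.00. For Ucp3 they were Iba57 (r = 0.93) and Cat (r = 0.93), catalase, which is itself in the oxidation list, and for Cpt1a Fbp2 (r = 0.94), muscle fructose bisphosphatase, and Deptor (r = 0.94), an inhibitor of mTOR. Fbp2 had a log2FC of 0.77 and was the only 1 of these 18 genes with an adjusted p under 0.05 in edgeR (adjusted p = 0.0289). For the others they were Sirpa and Pnpla7 (Pdk4, r = 0.94 each), Lrrk1 and Man1a2 (Angptl4, r = 0.93 each), Scrib and U2af2 (Ppard, r = 0.89 and 0.88), Cyth3 and Cnnm4 (Pparg, r = 0.90 and 0.85), Ttf2 and Mtss1l (Rxra, r = 0.94 each), and Dzip3 and Clip1 (Slc22a5, r = 0.94 and 0.92).

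The tissue was checked with marker genes. All 6 cardiomyocyte markers were abundant on the count scale, where the lowest mean was that of Myh6 in HFD+mTAC hearts (772.5 CPM). Their summed TPM was 18257 to 23195 in control and 16080 to 19510 in HFD+mTAC hearts (exact permutation test, p = 0.0159, adjusted over 12 measures 0.19). Myh6 (mean TPM 32.1 in control and 26.6 in HFD+mTAC hearts) and Ryr2 (7.47 and 6.25) added little to that sum. Of the 6, 2 (Actc1 and Tnni3) had an unadjusted edgeR p under 0.05. The 6 adipocyte markers summed to 0.062 to 0.700 TPM in control and 0.004 to 0.322 TPM in HFD+mTAC hearts. None of the 6 passed the filter on low counts, Adipoq averaged 0.476 CPM in control and 0.267 CPM in HFD+mTAC hearts, and Plin1 was at 0 in 9 of 10 mice. By mean CPM, Cidec and Cfd were also lower in HFD+mTAC hearts, whereas Lep, Retn and Plin1 were higher. Markers of hepatocytes (0.135 to 3.31 and 0.241 to 1.52 TPM), in which Vnn1 is abundant, overlapped between the groups. Of the markers listed for brown fat, Ucp1 was at 0 in all 10 mice. Cidea, the other one, averaged 38.9 CPM in control and 50.9 CPM in HFD+mTAC hearts, with groups that did not overlap. In TPM as deposited Cidea averaged 3.58 in control and 3.43 in HFD+mTAC hearts, and its groups overlapped. The log2FC of Cidea with lengths, taken over the genes tested, was above 0 (0.12 to 0.18). Summed markers of skeletal muscle, in which Ucp3 is abundant, were 0.134 to 0.337 TPM in control hearts other than TT-587 (16.95) and 0.114 to 0.375 TPM in HFD+mTAC hearts other than TT-592 (10.2). The part of these markers in the levels was not tested.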

How the data were processed

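Left ventricular polyadenylated RNA of 10 mice was sequenced by the authors and quantified with salmon 1.6.0 on GENCODE transcripts of GRCm38 per the paper, with corrections for sequence, GC and position bias, and summed to genes with tximport. The labels name the human build hg38, which the mouse gene symbols go against. The authors deposited estimated counts per gene, of which 20.07% were not whole. The deposited TPM values are scaled within each mouse and corrected for effective length. The deposited effective lengths, in bases, are average transcript lengths per gene and mouse.

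Groups came from the sample labels, which give no batch. The genes described, the lists and the tests were chosen with earlier results of these data known. Counts were rounded and tested with edgeR 4.0.16 (TMM, quasi-likelihood, Benjamini-Hochberg, threshold 0.05) in R 4.3.3 for protein-coding genes, not mitochondrially encoded, with at least 1 count in 9 of 10 mice. Of 29564 symbols, 27812 were matched to GENCODE M21 directly and 859 through an older symbol. For shares, exact permutation tests (two-sided) enumerated 252 arrangements (smallest possible p 0.00794). Effective lengths were tested with limma 3.58.1. Promoters came from RefSeq. Python 3.11.15 was used for exact tests. The tests were checked on simulated data.

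Alternatives were DESeq2 1.42.0, its size factors, upper-quartile factors, limma on log2(TPM + 1) and log2(TPM + 0.1), other filters and biotypes, lengths as an offset, a robust fit, and the omission of each mouse. For limma on TPM and for the count of groups that do not overlap in TPM, the deposited values were first rescaled within each mouse to the genes tested. Named genes were the 10 genes, all paralogs, and of each other list the genes with an adjusted p under 0.05 and the 2 smallest p-values in each direction, plus the 2 genes most like each member. Of the genes that this rule names, 3 are not reported here, though they count in their lists. Any other gene was named after its values were seen. Repeat libraries were looked for by chi-square, which was at least 12.9 per degree of freedom between mice of a group. The replicate numbers of the labels are not shared between groups.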

Additional observations from a re-analysis of the deposited data

Results flagged for a closer look

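Of 62 sets of 5 values examined (level, TPM, effective length or share in each group), 9 had 1 mouse far from the others, where chance gives about 1 in 20. Most concerned the deposited lengths or values made from them. Among HFD+mTAC mice, the effective length of Ppara was 24226 bases in TT-589 against at most 4619 bases in the others, and that of Angptl4 was 8648 bases in TT-590 against at most 6609. The effective length of Rxra was 3689 bases in TT-588 against at least 7513 in the others, and the same mouse stood apart in the TPM of Rxra (4.79 against at most 2.49) and in the share of Rxra in the TPM of the 3 RXR genes (31.5% against at most 17.7%). In TT-588 the TPM of Angptl4 was also apart, at 0.490 against at most 0.200. Among control mice, the effective length of Ppard was 3426 bases in TT-585 against at most 3076, and the share of Cpt1a in the TPM of Cpt1a and Cpt1b was 1.39% in TT-586 against at least 2.54%.

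On the count scale, which does not use the lengths, only the level of Pparg was apart, at 13.3 CPM in HFD+mTAC mouse TT-592 against at least 17.9 CPM in the other HFD+mTAC mice. The causes were not tested.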

How the results depend on the processing

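Over 180 values, each the log2 fold change of 1 of the 9 genes under 1 alternative or with 1 mouse left out, 172 kept the direction and side of the threshold, 4 passed the threshold where the main value did not, and 4 changed sign. Angptl4 was -0.35 with lengths as an offset, -0.10 with limma on log2(TPM + 1) and -0.032 with log2(TPM + 0.1), all scales that use the deposited lengths. Ppara ranged from -0.076 (without TT-588) to 0.54 (without TT-591) with 1 mouse left out and from 0.687 to 1.31 on the scales that use the lengths. DESeq2 called 120 genes and 3 of the members, against 8 and 0 in edgeR, and limma with either pseudocount and the length offset called 1 gene each. Leaving out each mouse gave 1 to 9 genes (9 without TT-591, 6 without TT-583 and at most 3 without any other mouse) and 0 to 1 members (Ucp3 without TT-591). With TPM rescaled within each mouse to the genes tested in place of CPM, 172 genes and 1 member had groups that did not overlap, against 261 and 2. In TPM as deposited, the groups overlapped for each of the 9 genes. In CPM, leaving out each mouse gave 339 to 499 genes, since fewer mice overlap less often, and 2 to 3 members. The share differences in percentage points were 0.76 for Cpt1a, 4.86 for Ucp3, 8.34 for Pdk4 and 4.31 for Rxra on counts, against -0.08, -3.16, 8.13 and 4.98 in TPM. In TPM, leaving out each mouse gave -0.386 (without TT-591) to 0.0856 (without TT-588) for Cpt1a, -5.84 (without TT-588) to -0.534 (without TT-585) for Ucp3, 4.82 (without TT-592) to 10.7 for Pdk4 and 1.96 (without TT-588) to 6.24 for Rxra. Pooled over groups, 1 pair of genes passed, and 0 to 3 did without each mouse, against 3. The causes of the other changes were not tested. No paired analysis was possible because the groups share no replicate number. The 5 mice per group and the low counts of Ppara, Angptl4 and Vnn1 limit what these data show, and a difference that missed the threshold is not shown to be absent.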
